A study of Mus musculus with 4 samples.

Results

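The calpain system of the mouse lens was examined at the transcript level in lenses lacking S100A4, a small calcium-binding protein, and in their wild-type (WT) littermates. It was taken as 9 named genes, found by matching Ensembl gene identifiers to symbols: 7 catalytic calpains (Capn1, Capn2, Capn3, Capn5, Capn7, Capn10 and Capn15), the small regulatory subunit Capns1, and the endogenous inhibitor calpastatin, Cast. All 9 had a row among the 14924 genes of the normalised table, and all 9 were among the 14780 genes tested. Each genotype, S100A4-/- and WT littermate, had 2 lens libraries, both on a C57BL/6 background by the labels (C57BL/6J in the study's methods), from mice 1 month of age. The deletion was present in the whole animal rather than in the lens alone, the study used mice of both sexes, and each library was made from 6 to 12 pooled lenses, so single animals cannot be compared. Between 68038158 and 81602367 reads were assigned to the genes of the table per library. Nothing in the labels shows that the 2 pools of a genotype share no litter, so the p-values given here do not reach beyond these pools. In the main test the spread of each gene was also partly shared with genes of similar level.

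Calpains are cysteine proteases that are switched on by calcium and cut their substrates at a limited number of sites rather than degrading them fully. Calpain 1 (Capn1) and calpain 2 (Capn2) each pair with the small subunit encoded by Capns1, and calpastatin binds and blocks these calcium-bound enzymes. In the lens, calpains cut crystallins and the membrane-associated and intermediate filament cytoskeleton, and their excessive activation by calcium is a well-known step in several rodent cataract models. Capn3, the calpain best known from skeletal muscle, also gives rise to lens-specific splice forms in rodents.

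The catalytic calpains share a protease core whose active-site cysteine lies in a short conserved stretch. The coding sequence of this stretch is shown to identify which of the measured genes encode this core and how far they diverge, with 21 bases on either side of the cysteine codon, 5′ to 3′ on the coding strand, read from the GENCODE M21 transcripts (GRCm38), and with the cysteine codon in capitals.
Capn1: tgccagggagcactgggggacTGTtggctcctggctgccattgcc
Capn2: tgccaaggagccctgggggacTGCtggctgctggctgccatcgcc
Capn3: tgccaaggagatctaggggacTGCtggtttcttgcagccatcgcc
Capn5: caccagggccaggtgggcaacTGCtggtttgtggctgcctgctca
Capn7: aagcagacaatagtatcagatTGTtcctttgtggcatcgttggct
Capn10: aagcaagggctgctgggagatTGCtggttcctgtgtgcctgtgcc
Capn15: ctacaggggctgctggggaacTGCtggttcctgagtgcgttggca
Capn1 shared 40 of these 45 bases with Capn2, and Capn3 shared 38. Capn10 shared 29, Capn5 and Capn15 each shared 28, and Capn7 was the most divergent, with 18 of 45. The cysteine was codon 115 of Capn1, codon 105 of Capn2, codon 129 of Capn3, codon 81 of Capn5, codon 290 of Capn7, codon 73 of Capn10 and codon 628 of Capn15 in the transcripts used. In Capn2 the codon lay in coding exon sequence at chr1:182492863-182492865, in exon 3 of 21, on the reverse strand. No such stretch was found in the coding sequences of Capns1 and Cast, which encode no protease core.

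Calpastatin carries repeated inhibitory domains, each centred on a short run of amino acids that enters the active-site cleft. A search for the core run found 3 copies in the Cast coding sequence, starting at codons 283, 556 and 693. A copy that departs from the run searched would have been missed, so 3 need not be the number of inhibitory domains. The copies found are shown because they are what the inhibitor sets against the catalytic stretch above, and the codons of the core run are in capitals.
Cast repeat 1: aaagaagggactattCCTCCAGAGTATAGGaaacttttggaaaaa
Cast repeat 2: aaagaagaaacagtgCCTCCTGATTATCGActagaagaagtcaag
Cast repeat 3: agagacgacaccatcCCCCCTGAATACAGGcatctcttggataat
On the reverse strand of chromosome 13, the core codons of repeat 1 lay at chr13:74738230-74738244 in exon 12, those of repeat 2 at chr13:74724793-74724807 in exon 22, and those of repeat 3 at chr13:74702582-74702596 in exon 27 of the 32-exon transcript. Gene-level values were deposited, so reads over these exons cannot be separated from reads over the rest of each gene.

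S100a4 itself was measured first, since it checks the genotype labels. Its normalised value was 14.6 in S100A4-/- replicate 1 and 18.2 in S100A4-/- replicate 2, against 14420 in WT replicate 1 and 14385 in WT replicate 2. Both S100A4-/- libraries were thus far below both WT libraries, as labelled. The normalised value used throughout is the read count of a gene divided by 1 scaling factor for its library, and 1 read was worth between 0.856 and 1.09 of it. The tissue label was checked in the same way. All 10 lens fiber markers were present in every library, led by Cryaa, the most abundant alpha-crystallin gene, and limma called none of the 10 at an adjusted p of 0.05 or less. On the recovered reads, DESeq2 called 1 of them lower, Mip (the lens water channel), and edgeR called 2, Mip and Crygs.

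The calpain system genes were expressed in all 4 libraries, and their levels spanned a wide range. Levels of different genes were compared as the normalised value per kilobase of annotated exonic length, and here as the mean of the 4 libraries. Capns1 was the most abundant, at 2765 ± 215 per kb (SD, n = 4 libraries), and ranked 313 among the 14782 genes with an annotated length. Capn2 followed at 868 ± 49.3 per kb, rank 1042, so the ubiquitous calpain 2 subunit pair stood at the head of the list. Capn7, a calpain that lacks the usual calcium-binding penta-EF-hand domain, reached 341 ± 12.7 per kb, and Capn3 reached 336 ± 15.4 per kb. These did not differ beyond their spread, Capn7 being higher in 3 of 4 libraries, and their order turned when either WT library was left out.

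Capn1 came next at 142 ± 8.41 per kb, followed by Capn10, a calpain without the penta-EF-hand domain, at 115 ± 5.01 per kb. Capn5, a non-classical calpain known from a human inflammatory eye disease, stood at 74.0 ± 4.05 per kb, and the inhibitor Cast at 71.8 ± 1.01 per kb. The ranges of Capn5 and Cast overlapped. Capn15, a calpain with zinc fingers at its amino-terminal end, was the least abundant at 41.9 ± 3.12 per kb, rank 8812. All other neighbours in this order had ranges that did not overlap.

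**Figure D1:**
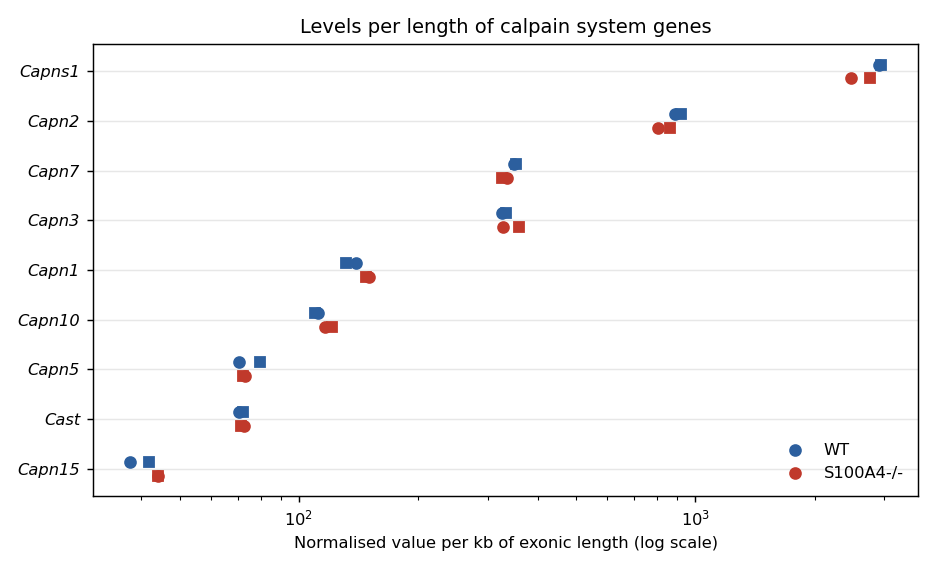
Normalised value per kb of exonic length on a log axis for the 9 genes in each WT (blue) and S100A4-/- (red) library, with circles for replicate 1 and squares for replicate 2. Capns1 and Capn2 lie above the other genes in every library, and the points of Capn7 and Capn3 intermingle, as do those of Capn5 and Cast.

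The order depended in part on the length used. Per kilobase of the longest annotated transcript instead of all exonic bases, Capns1 (4281) and Capn2 (1709) still led and Capn15 (46.1) was still last, but Capn3 (532) stood above Capn7 (358) and Cast (160) stood above Capn1 (155) and Capn5 (90.2). The exonic length of Cast is 11470 bases against 5141 for its longest transcript, the widest gap among the 9 genes. Cast and Capn1 each moved by 2 places between these orders.

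Expressed as a share of the summed level per kb of the 7 catalytic calpains, Capn2 took 43.4% and 44.7% in the S100A4-/- libraries against 46.2% and 46.7% in the WT libraries. Capn3 took 17.7% and 18.6% against 16.9% in both WT libraries, and Capn7 took 18.1% and 16.8% against 18.2% and 17.9%. Capn2 was therefore the leading catalytic calpain transcript in every library. The share of Capn1 was 8.12% and 7.62% against 7.24% and 6.69%, higher in both S100A4-/- libraries, and that of Capn10 was 6.30% and 6.27% against 5.80% and 5.59%. Capn5 took between 3.67% and 4.06%, and Capn15 between 1.95% and 2.38%. The shares of a library sum to a fixed whole, so a lower share of Capn2 raises those of the others. All of them depend on the length used.

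The comparison between genotypes asked whether loss of S100A4 altered the transcripts of calpains, their subunit or their inhibitor. None of the 9 genes met the threshold of a change of at least 2-fold with an adjusted p of 0.05 or less, which 550 of the 14780 genes tested did (3.72%), 539 of them higher and 11 lower. DESeq2 and edgeR on the recovered reads also called 0 of the 9, and in limma 2 of them, Capn2 and Capns1, had an unadjusted p under 0.05. With no fold threshold, 1 of the 9, Capns1, was lower at an adjusted p of 0.05 or less, against 1.33% of all genes tested, and none was higher, against 5.62%. The estimates of the 9 genes lay between -0.16 and 0.16 on the log2 scale, and every 95% interval lay between a fold of 0.832 and 1.34. Fold changes are on the log2(value + 1) scale. In whole-lens RNA, fewer cells of a type and less RNA per cell cannot be told apart.

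**Figure D2:**
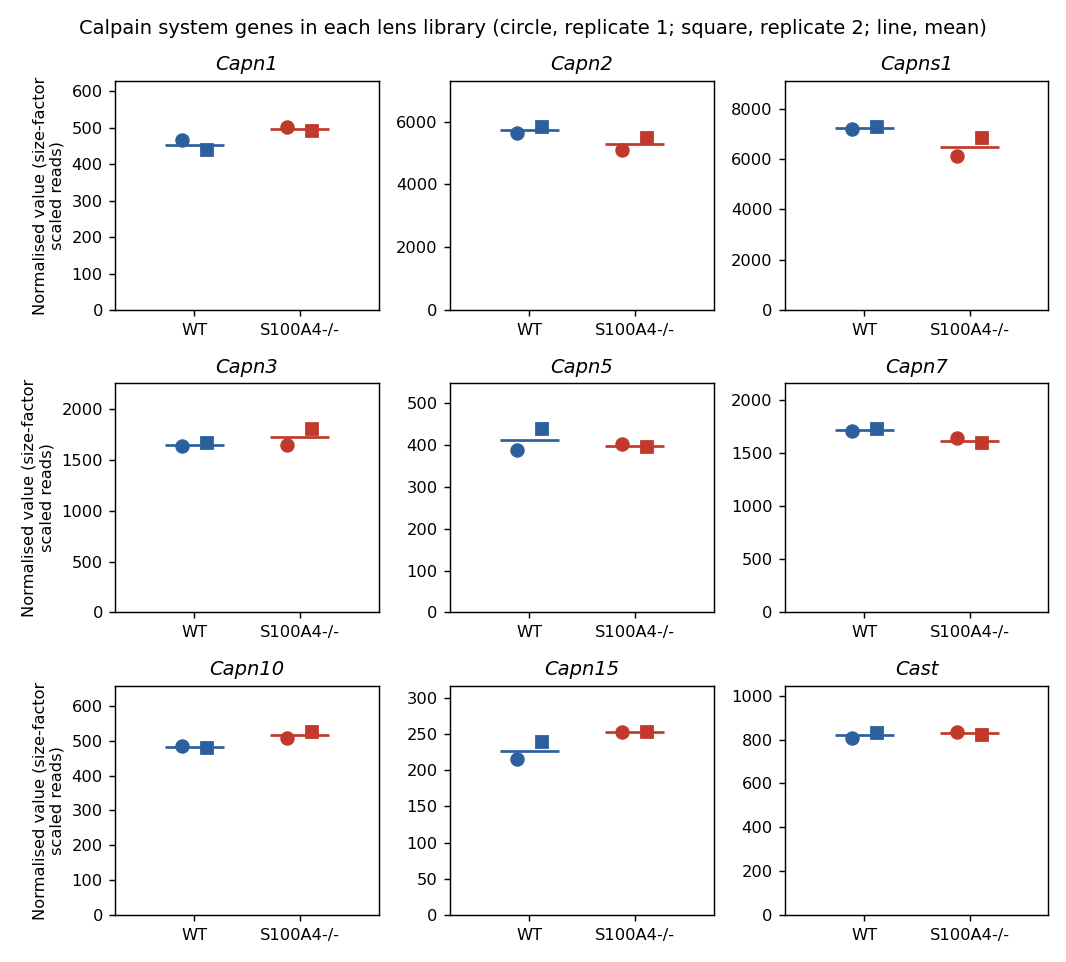
Normalised value of each of the 9 genes in every library, on linear axes starting at 0, with a line at the mean of each genotype (n = 2). The S100A4-/- points lie below the WT points for Capn2, Capns1 and Capn7, above them for Capn1, Capn10 and Capn15, and among them for Capn3, Capn5 and Cast.

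Capns1 (ENSMUSG00000001794; GRCm38 chr7:30186936-30198811, reverse strand) encodes the small subunit that calpains 1 and 2 need for stability. Its normalised value was 6107 in S100A4-/- replicate 1, 6828 in S100A4-/- replicate 2, 7183 in WT replicate 1 and 7282 in WT replicate 2. Both S100A4-/- values lay below both WT values, with S100A4-/- replicate 1 the lowest. The mean was 6467 ± 510 in S100A4-/- lenses against 7232 ± 70.3 in WT lenses (SD, n = 2 each), and the transcript fell by 10.7% (log2 fold change -0.16 ± 0.050 SE, limma adjusted p = 0.0369). The call was not made by DESeq2 (adjusted p = 0.135) or edgeR (adjusted p = 0.0606) on the recovered reads. Without S100A4-/- replicate 1 the log2 fold change was -0.08 (adjusted p = 0.447). The adjusted p was also 0.130 without WT replicate 1, 0.218 without WT replicate 2 and 0.267 with libraries scaled to equal totals. Across all alternatives the estimate ranged from -0.24 to -0.08 and the adjusted p from 0.00338 to 0.550. The highest was in limma without the variance trend, a trend that lends each gene the spread of genes of similar level. The summed value of the 10 lens fiber markers was also lowest in S100A4-/- replicate 1, at 22537200, with 24013400 in S100A4-/- replicate 2. It was 24203400 in WT replicate 1 and 24182600 in WT replicate 2, and its part in the result was not tested.

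Capn2 (ENSMUSG00000026509; chr1:182467260-182517608, reverse strand) encodes the catalytic subunit of calpain 2, the millimolar-calcium enzyme. Its normalised value was 5097 in S100A4-/- replicate 1, 5473 in S100A4-/- replicate 2, 5636 in WT replicate 1 and 5835 in WT replicate 2. As for its partner Capns1, the S100A4-/- values were the lower pair and S100A4-/- replicate 1 the lowest. The mean was 5285 ± 266 against 5736 ± 140, a log2 fold change of -0.12 ± 0.050 SE with a limma adjusted p of 0.177, which did not pass the threshold. Without S100A4-/- replicate 1 the log2 fold change was -0.07.

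Capn1 (ENSMUSG00000024942; chr19:5988545-6015897, reverse strand) encodes the catalytic subunit of calpain 1, the micromolar-calcium enzyme. Its normalised value was 503 in S100A4-/- replicate 1, 493 in S100A4-/- replicate 2, 466 in WT replicate 1 and 440 in WT replicate 2. Here the S100A4-/- values were the higher pair, the opposite side from Capn2 and Capns1. The log2 fold change was 0.14 ± 0.098 SE (limma adjusted p = 0.515), so the difference did not pass the test.

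Capn3 (ENSMUSG00000079110; chr2:120456019-120504913, forward strand) measured 1647 in S100A4-/- replicate 1, 1803 in S100A4-/- replicate 2, 1636 in WT replicate 1 and 1670 in WT replicate 2. The genotypes overlapped, S100A4-/- replicate 2 alone lying above the rest, and the log2 fold change was 0.06 (95% interval -0.07 to 0.19, limma adjusted p = 0.700). These gene-level values do not separate the lens splice forms of Capn3 from the muscle form. Capn3 shares 386 exonic bases on the same strand with Ganc, a glucosidase gene at 292 to 404 per library, and reads over those bases may be missing from both.

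Cast (ENSMUSG00000021585; chr13:74692368-74808810, reverse strand) measured 836 in S100A4-/- replicate 1, 821 in S100A4-/- replicate 2, 809 in WT replicate 1 and 830 in WT replicate 2. The inhibitor's transcript was therefore at nearly the same value in all 4 libraries, the highest and the lowest belonging to different genotypes. The log2 fold change was 0.02, with a 95% interval of -0.14 to 0.18 (limma adjusted p = 0.950).

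None of the non-classical calpains passed the test. Capn7 (ENSMUSG00000021893; chr14:31336638-31371986, forward strand) measured 1642 and 1593 in the S100A4-/- libraries against 1711 and 1727 in the WT libraries, a log2 fold change of -0.09 (limma adjusted p = 0.514) with the S100A4-/- values below. Capn10 (ENSMUSG00000026270; chr1:92934376-92947941, forward strand) measured 507 and 526 against 484 and 478, a log2 fold change of 0.10 (limma adjusted p = 0.648). The S100A4-/- values of Capn10 were the higher pair.

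Capn15 (ENSMUSG00000037326; chr17:25958364-25985796, reverse strand) measured 253 in both S100A4-/- libraries against 215 and 240, the highest estimate of the 9 at 0.16 ± 0.133 SE and also the least precise (limma adjusted p = 0.604). It was 0.08 without WT replicate 1 and 0.23 without WT replicate 2. The Capn15 values rested on 206 to 295 reads per library, the fewest of the group. Capn5 (ENSMUSG00000035547; chr7:98121559-98178274, reverse strand) measured 402 and 396 against 387 and 438, with the S100A4-/- values between the WT ones (log2 fold change -0.05, limma adjusted p = 0.882).

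**Figure D3:**
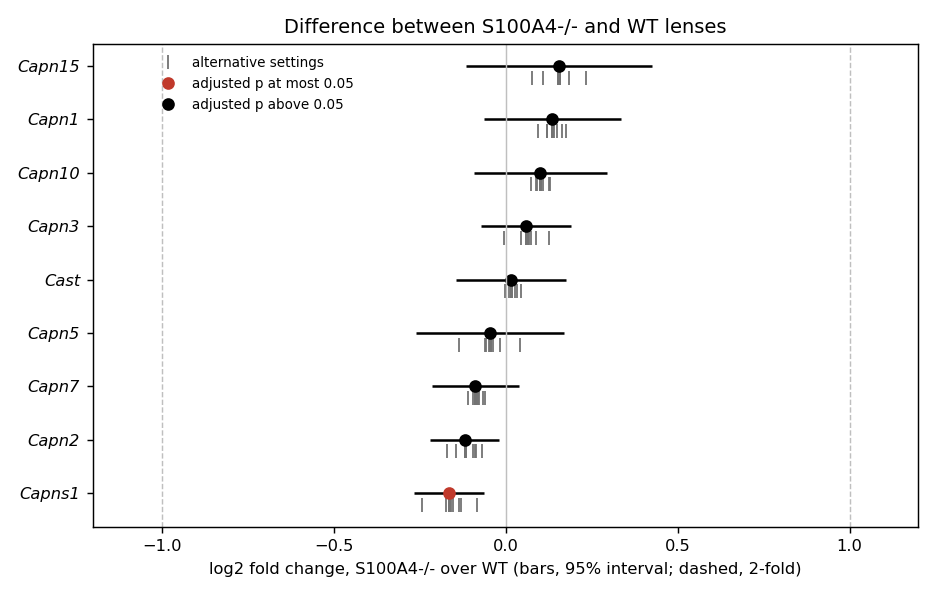
Log2 fold change of S100A4-/- over WT for the 9 genes (points), with 95% intervals (bars), the estimates under the alternative settings (grey ticks) and dashed lines at 2-fold. The point of Capns1 is the single one at an adjusted p of 0.05 or less (red), and no interval reaches a dashed line.

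In all, 3 of the 9 genes had both S100A4-/- values above both WT values and 3 had both below, while 23.7% and 23.2% of all genes tested did so. With 9 genes, 1 gene more or less moves such a share widely, and nothing is read from the difference. The median log2 fold change of the 9 was 0.02 against -0.01 over all genes tested, and the median of its absolute value was 0.10 against 0.12.

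The transcripts of enzyme and inhibitor were followed as the ratio of 2 values within a library, which no scaling factor can alter. RNA values do not give protein amounts or protease activity. The values are not corrected for length, so a ratio is compared between libraries and does not give which gene is more abundant. Per kb of exonic length, Capn1/Cast was 2.06 and 2.06 in the S100A4-/- libraries against 1.97 and 1.82 in the WT libraries. Capns1/(Capn1 + Capn2) was 2.59 and 2.73 against 2.82 and 2.80. With 2 libraries per genotype the exact permutation test cannot give a two-sided p below 0.333. The ratio of Capn2 to Cast stood at 6.10 and 6.67 in the S100A4-/- libraries against 6.97 and 7.03 in the WT libraries. The S100A4-/- libraries lay below the WT libraries, by 0.13 on average on the log2 scale (exact permutation p = 0.333). The log2 difference was -0.07 without S100A4-/- replicate 1 and -0.20 without S100A4-/- replicate 2.

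The ratio of Capn1 to Cast was 0.601 and 0.600 against 0.575 and 0.530. It lay on the other side, higher by 0.12 on the log2 scale (exact permutation p = 0.333), and by 0.06 without WT replicate 2. The ratio of Capn3 to Cast was 1.97 and 2.20 against 2.02 and 2.01, and the WT libraries fell between the S100A4-/- ones (exact permutation p = 1). The ratio of the small subunit to the sum of its catalytic partners, Capns1/(Capn1 + Capn2), was 1.09 and 1.14 against 1.18 and 1.16, a log2 difference of -0.07 (exact permutation p = 0.333) that was -0.03 without S100A4-/- replicate 1 and -0.10 without S100A4-/- replicate 2. This test could not have passed a threshold of 0.05 for any of the 4 ratios, whatever their values.

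**Figure D4:**
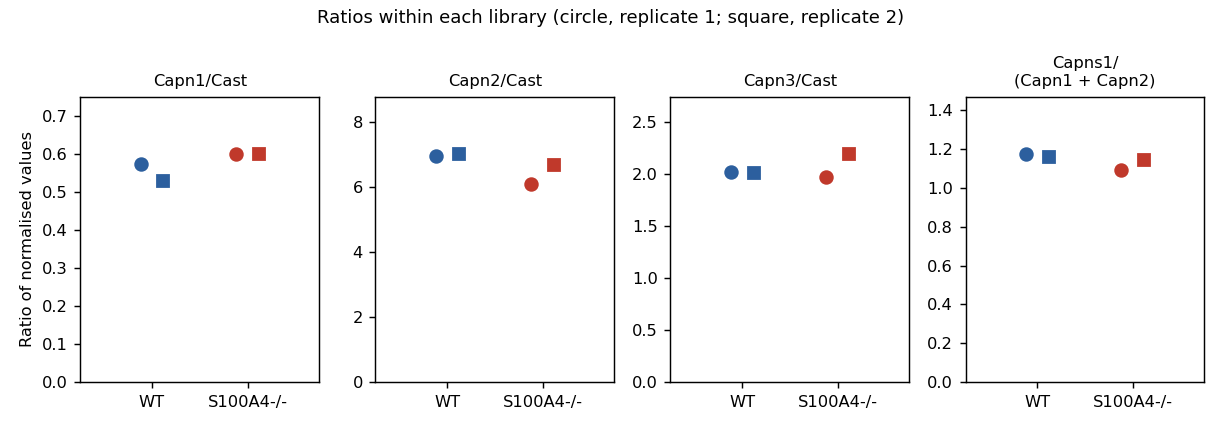
Ratio of normalised values, not corrected for gene length, within each library for 4 pairs. Axes are linear and start at 0, with WT in blue and S100A4-/- in red. The genotypes are apart for Capn1/Cast, Capn2/Cast and Capns1/(Capn1 + Capn2), with mean folds of 1.09, 0.911 and 0.956, and overlap for Capn3/Cast.

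The genes whose 4 values ran closest to those of Capns1 were found by Euclidean distance between centred log2 values over the 4 libraries, among the 11339 genes whose mean value reached 50. They were Mki67 (distance 0.0127), a marker of proliferating cells, Nudt14 (0.0139), a nucleotide-sugar hydrolase, and Bend7 (0.0154). With 4 values per gene among 11339 genes, close neighbours can be found for nearly any pattern, so nothing is read from these. Mki67, at 349 and 386 in the S100A4-/- libraries against 410 and 413 in the WT libraries, did not itself pass the test (log2 fold change -0.17, limma adjusted p = 0.454).

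Of the 7 other calpain family genes considered, 2 had a row in the table. Capn6, a calpain homologue without the catalytic cysteine, measured 51.4 and 58.8 in the S100A4-/- libraries against 82.5 and 67.9 in the WT libraries (log2 fold change -0.44 ± 0.253 SE, limma adjusted p = 0.386). Capn9, known from the digestive tract, measured 27.4 and 24.3 against 21.9 and 17.5 (0.38 ± 0.424 SE, limma adjusted p = 0.716). The Capn9 estimate was 0.23 without WT replicate 2 and 0.07 with quantile normalisation. Neither passed the test, and both were low. Capn8, Capn11, Capn12, Capn13 and Capns2 were not analysed here.

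The transcripts of proteins that calpains are known to cut in lens cells mostly did not pass the test. Of 24 such genes, all tested, limma called 1 higher and 2 lower at an adjusted p of 0.05 or less, against 5.62% and 1.33% of all genes tested, none by 2-fold, and the median log2 fold change was -0.06. Vcl, which encodes the adhesion protein vinculin, measured 830 and 817 in the S100A4-/- libraries against 601 and 614 in the WT libraries and rose by 0.44 ± 0.083 SE on the log2 scale (limma adjusted p = 2.72e-04). Its adjusted p was 0.0699 without S100A4-/- replicate 1 and 0.122 in limma without the variance trend, which also did not call the 2 genes that follow.

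The other 2 calls were small decreases. Sptan1, the alpha-spectrin whose breakdown products are a standard readout of calpain activity, measured 55239 and 59106 in the S100A4-/- libraries against 62274 and 64362 in the WT libraries and fell by 0.15 on the log2 scale (limma adjusted p = 0.0198). Cdh2, the N-cadherin of fiber cell junctions, measured 6520 and 6966 against 7422 and 7615 and fell by 0.16 (limma adjusted p = 0.0332). S100A4-/- replicate 1 was the lowest library for both, and neither call was made without it, the adjusted p being 0.270 for Sptan1 and 0.324 for Cdh2. Leaving out a WT library also ended both calls (0.122 and 0.365 for Sptan1, 0.117 and 0.297 for Cdh2), and Cdh2 was not called without S100A4-/- replicate 2 (0.0559), by DESeq2 (0.0826) or by edgeR (0.0564). With quantile normalisation Sptan1 was at -0.05 (0.291) and with equal totals its adjusted p was 0.181, and the adjusted p of Cdh2 was 0.119 and 0.298 in the same settings. DESeq2 and edgeR, which both called Sptan1 lower, also called Mip lower (0.0348 and 0.0290). The most abundant genes on the list, Cryaa and Crybb2, had log2 fold changes of -0.07 (limma adjusted p = 0.715) and -0.001 (limma adjusted p = 0.995). Crybb2 turned to a value above 0 with TMM factors and with equal totals.

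Among genes that handle calcium, the ion that activates calpains, 21 of the 22 with a row were tested, and limma called 4 higher and none lower at an adjusted p of 0.05 or less, where 5.62% of all genes tested were higher and 1.33% lower. DESeq2 called 2 higher, Atp2b2 and Atp2b4, and edgeR called 4. The median log2 fold change was 0.06. The 4 included 3 of the plasma membrane calcium pumps, which export calcium. The study reported no significant difference in lens calcium between the genotypes, in lenses older than these. Its cataracts began at a later age still. Atp2b2 measured 71.9 and 64.9 in the S100A4-/- libraries against 21.9 and 18.6 in the WT libraries (log2 fold change 1.71 ± 0.329 SE, limma adjusted p = 3.22e-04). Atp2b4 measured 146 and 196 against 80.4 and 71.2 (1.15 ± 0.197 SE, limma adjusted p = 5.45e-05). Both rose by more than 2-fold. The call for Atp2b2 was not made without S100A4-/- replicate 1 (adjusted p = 0.128) or replicate 2 (0.0797), nor that for Atp2b4 without S100A4-/- replicate 2 (0.127) or the variance trend (0.139).

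Atp2b1, the pump found most widely, measured 336 and 307 against 221 and 235, and rose by 0.49 ± 0.126 SE on the log2 scale (limma adjusted p = 0.00882). Stim1, the sensor of calcium stores, measured 367 and 403 against 315 and 270, and rose by 0.40 ± 0.117 SE (limma adjusted p = 0.0285). These 2 calls were not made by DESeq2 on the recovered reads, with adjusted p values of 0.0972 for Atp2b1 and 0.233 for Stim1. Atp2b1 was also not called without S100A4-/- replicate 1 (0.261), S100A4-/- replicate 2 (0.126), WT replicate 1 (0.0553) or the variance trend (0.156), nor Stim1 without S100A4-/- replicate 1 (0.199), S100A4-/- replicate 2 (0.356), WT replicate 2 (0.288) or the variance trend (0.319), nor with quantile normalisation (0.0932). Calm3, a calmodulin gene and the most abundant of the list, did not pass the test, with a log2 fold change of -0.07 (limma adjusted p = 0.393). The Calm3 estimate was -0.04 without S100A4-/- replicate 1 and also with equal totals. Atp2a3 was not tested, its values being 8.56, 8.11 and 7.31 and, in WT replicate 2, 0, where 3 reads would correspond to 3.28. Atp2b3 was not analysed here.

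Of 23 other proteases and protease inhibitors tested, 2 were higher and none lower at an adjusted p of 0.05 or less by limma, DESeq2 and edgeR alike, a share near the 5.62% of all genes tested that were higher, and the median log2 fold change was -0.01. Both were lysosomal cathepsins and both rose by more than 2-fold. Ctsh, encoding cathepsin H, measured 367 and 333 in the S100A4-/- libraries against 137 and 155 in the WT libraries (log2 fold change 1.26 ± 0.138 SE, limma adjusted p = 7.64e-09), with an adjusted p of 0.0551 in limma without the variance trend. Ctss, encoding cathepsin S, an enzyme of antigen-presenting cells, measured 50.5 and 37.5 against 14.6 and 10.9 (1.70 ± 0.417 SE, limma adjusted p = 0.00551), a call not made without S100A4-/- replicate 1 (0.255), replicate 2 (0.118) or the variance trend (0.104). The most abundant cathepsins, Ctsl and Ctsd, had log2 fold changes of -0.01 (limma adjusted p = 0.966) and 0.01 (limma adjusted p = 0.928). Csta1 was not analysed here.

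**Figure D5:**
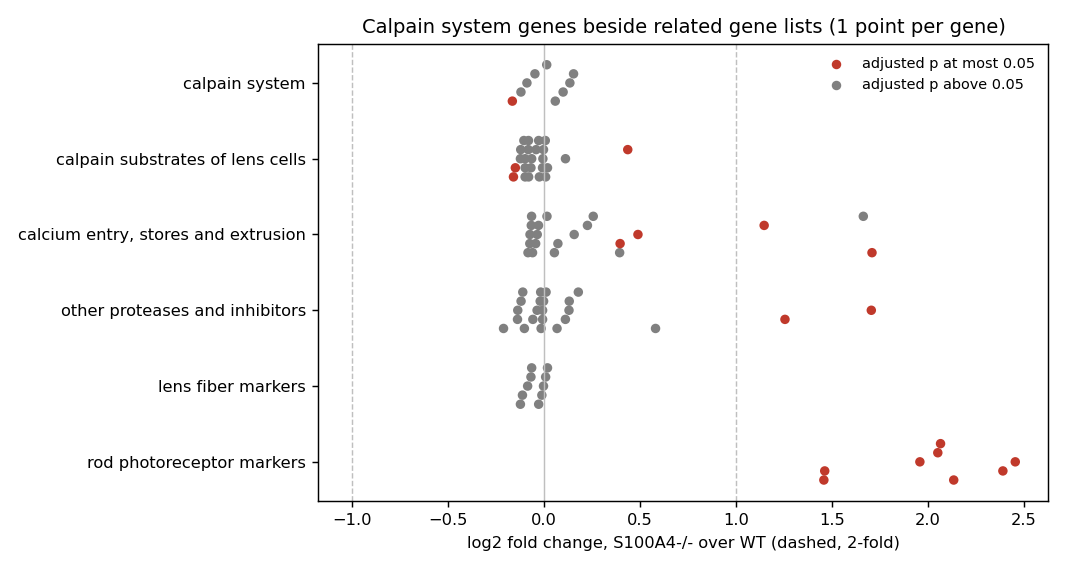
Log2 fold change of S100A4-/- over WT for each tested gene (1 point per gene) of the calpain system and of 5 other lists, red where the adjusted p is 0.05 or less, with dashed lines at 2-fold. The 9 calpain system genes lie within 0.2 of 0, while 2 calcium genes, 2 cathepsins and all 8 rod markers lie in red beyond 1.

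Markers of other cell types moved with genotype beside these values, and their part in any result given here was not tested. Unless another tool is named, calls are by limma at an adjusted p of 0.05 or less. Of all genes tested, 5.62% were higher and 1.33% lower at that threshold. All 8 rod photoreceptor markers were higher in S100A4-/- lenses, with a summed value of 6477 and 6332 in the S100A4-/- libraries against 1559 and 1581 in the WT libraries and Gnat1, the rod transducin gene, the most abundant. Of 6 pigment cell markers, 5 were higher (summed value 1672 and 1737 against 682 and 754), although the most abundant, Oca2, had a log2 fold change of 0.001. Of 8 macrophage and blood markers, 5 were higher by limma and by edgeR (summed value 485 and 439 against 224 and 150), led by the haemoglobin gene Hbb-bs, but DESeq2 called 2 of them, Csf1r and Hbb-bs. Over the same libraries none of the 9 calpain system genes was higher at that threshold. As 5.62% of all genes tested were higher, nothing is read from this count of 9 genes.

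Of 7 Mueller glia markers, 3 were higher at an adjusted p of 0.05 or less, where 5.62% of all genes tested were higher and 1.33% lower. The list's most abundant gene, Vim, which lens cells also express, was not higher (log2 fold change -0.10, limma adjusted p = 0.188). The next 3 lists are short and hold a single call each by limma, and nothing is read from those counts. Of 5 endothelial markers, Kdr alone was higher, and the list's summed value was 182 and 198 against 97.1 and 137 with Tek the most abundant. Of 10 skeletal muscle markers, 4 had a row and summed to 339 and 286 against 412 and 426, led by Ckm, which was lower by limma and edgeR (adjusted p = 0.0470) but not by DESeq2 (adjusted p = 0.291). Of 8 lens epithelium markers, Slc38a3 alone was higher by limma and edgeR (adjusted p = 0.0178) and none by DESeq2 (adjusted p = 0.129 for Slc38a3), the summed value was 27469 and 27157 against 26883 and 27444, and Pax6 was the most abundant. None of the markers with a row on these lists was at 0 in any library. Slc45a2, Ptprc, Acta1, Tnnt3, Myh1, Myh4, Tnnc2 and Myl1 were not analysed here.

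Several of the 9 genes overlap others in the annotation, and the counting's use of strand is not stated, although the libraries were stranded. On the opposite strand, Cast shares 834 exonic bases with Erap1 and Capn7 shares 116 with Sh3bp5. Antisense genes that were not analysed here share 1717 exonic bases with Capn2, 1105 with Capn15, 639 with Capn10, 394 with Capn1 and 202 with Capns1. The values of these genes are to that extent uncertain.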

How the data were processed

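RNA of pooled lenses was sequenced by the study as stranded poly(A) mRNA libraries, single-end, in 1 lane. Per the labels and the study's methods, the authors used Trim Galore for trimming, STAR for mapping to GRCm38 (mm10) and HTSeq for counting singly mapped reads per gene, retained genes with 10 reads or more in some library and scaled the counts with DESeq2's size factors (versions not given in the sources used here). The deposited values are this scaled signal, not corrected for gene length; 100% of them came out as whole reads, within 0.01, once divided by the value of 1 read. Reads per library ranged from 68038158 to 81602367.

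Genes whose value reached 10 in any library were tested on log2(value + 1) with limma 3.58.1 (variance trend, Benjamini-Hochberg over all genes, two-sided) in R 4.3.3. The thresholds were 2-fold and an adjusted p of 0.05, as in the study's methods. DESeq2 1.42.0 and edgeR 4.0.16 (quasi-likelihood) were run as alternatives on the recovered reads. Of the gene identifiers, 14782 matched GENCODE M21, which gave symbols, coordinates and exonic lengths, and the authors' annotation may differ from it. Ratios were tested by exact permutation over libraries with SciPy 1.17.1. On simulated counts over 14407 genes for this 2 against 2 comparison, limma recovered 28 of 50 genes changed 1.25-fold, 39 of 50 changed 1.5-fold and 50 of 50 changed 2.5-fold, with 7 false calls. Alternatives changed the pseudocount, filter, scaling, test, replicate block, length and libraries used.

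The members and lists were chosen with earlier results of these data known. Beyond the 9 members, the rule named each other calpain family gene with a row, the genes of each related list at an adjusted p of 0.05 or less and its 2 most abundant, the targeted gene, the most abundant gene of each marker list, and the 3 genes nearest in pattern to the member with the largest change. A single gene that this rule names is not reported here. Slc38a3 and Kdr were named outside the rule, after their values were seen, as the single call of their list, as were Mip, Crygs and Csf1r, called by another tool, Atp2a3, listed at 0 in 1 library, and the overlapping genes.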

Additional observations from a re-analysis of the deposited data

How the results depend on the processing

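None of the 9 calpain system genes passed the 2-fold threshold under any alternative of scaling, filter, pseudocount, test or library. With no fold threshold the count was 1, Capns1. That count was 0 with equal totals, quantile normalisation, limma without the variance trend, DESeq2 and edgeR, and 0 to 1 with 1 library left out. The replicate numbers did not pair the libraries (r = 0.0119 between same-numbered deviations), and the fit with a replicate block kept the Capns1 estimate at -0.16 and the count at 1. Of 135 estimates for the 9 genes under alternatives, 124 kept direction and side of the threshold, 8 were past it no longer, all for Capns1, and 3 changed sign. With 1 library left out, those 3 ranged from -0.00533 to 0.125 for Capn3, from -0.134 to 0.0423 for Capn5 and from -0.00279 to 0.0336 for Cast, and the Capn3/Cast log2 difference ranged from -0.0337 to 0.123. Dividing by the longest transcript kept 3 of 9 genes at their rank. Of the related genes, 4 passed the 2-fold threshold and 9 passed with no fold threshold. The first count was 2 at a mean value of at least 50, 1 without the variance trend and 1 to 4 with 1 library left out. The second was 1 without the variance trend, in both cases Atp2b2, 12 with the replicate block and 2 to 7 with 1 library left out. Some estimates near 0 changed sign. Crybb2 was 0.00159 with TMM factors, 0.0278 with equal totals and 0.00232 with edgeR, and Ctsl was 0.0232 with equal totals and 0.0387 with quantile normalisation. With 1 library left out, Cryaa ranged from -0.143 to 0.010, Crybb2 from -0.0231 to 0.0205, Ctsl from -0.0632 to 0.0513 and Ctsd from -0.0245 to 0.0486. A fit without 1 library leaves 1 library in a genotype, assumed to vary like the others. The causes were not tested. Of the 9 genes, Capn15 had the fewest reads, 206 in WT replicate 1.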
